A study of Homo sapiens with 12 samples.

Results

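NF-kB is a family of transcription factors, and 10 of its core genes were followed here: the subunits NFKB1, NFKB2, REL, RELA and RELB, the inhibitors NFKBIA, NFKBIE and TNFAIP3, and the adaptors BIRC3 and TRAF1. The genes were chosen by name, as the rows of the count table whose Ensembl identifier carries 1 of these symbols. All 10 were found once each among 57820 gene rows and all 10 passed the filter on low counts, which left 17096 genes tested.

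The cells were A549 (lung cancer), SKOV3 (ovarian cancer) and MDA-MB-231 (breast cancer), established human lines that the series' design text describes as lacking MYC amplification. Each line was made into a stable control culture with lentivirus from the plasmid pCDH-CMV, whose genotype the labels give as WT, and a stable MYC culture with lentivirus from pCDH-puro-cMyc, a vector for full-length human MYC selected with puromycin. Control and MYC cells received DMSO or tipifarnib for 48 h, at 10 µM in A549 and at 20 µM in SKOV3 and MDA-MB-231. Tipifarnib blocks farnesyltransferase, an enzyme that attaches a lipid to proteins such as HRAS and the lamins. The design asks which genes go with a changed tipifarnib sensitivity in MYC cells. It gave 12 libraries in 4 groups, the 2 genotypes in each of the 2 treatments, and every group has 1 library from each line. The replicates of a group are thus different lines, and no repeat culture of a line is labelled within a group. The p-values therefore measure the spread among these samples only. The labels name no promoter for the MYC insert and do not say whether a culture is a clone.

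As background, NF-kB proteins bind DNA as dimers. In resting cells most dimers are held in the cytoplasm by inhibitors of the IkB family. In the canonical route, signals such as TNF or IL-1 lead to phosphorylation and breakdown of IkB, which releases dimers of RELA or REL with p50, the product of NFKB1. In the non-canonical route, the kinase IKKα drives the processing of the NFKB2 product p100 to p52, which acts with RELB. Several NF-kB targets are themselves parts of the pathway, including NFKB2, RELB, NFKBIA, TNFAIP3, BIRC3 and TRAF1, and so the RNA of these genes is often read beside that of inflammatory targets.

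The promoters of several members carry sequences of the kind that NF-kB dimers bind, which are shown because the members' RNA is what was measured here. The 250 bases before each RefSeq start site in GRCh38.p14 were searched on both strands for GGGNNTTNCC, a form of the kB motif, with overlapping matches counted. RELB and NFKBIE had no entry. Of the 8 members with an entry, 6 had a match in at least 1 of their windows, against 6.14% of 27305 genes. These members were BIRC3, NFKB1, NFKB2, NFKBIA, REL and TNFAIP3. By window, 7 of the members' 14 had a match, against 5.07% of 35116 windows. A gene with more windows has more chances of a match. RELA and TRAF1 had none of these letters in their windows. A match is a description of the sequence, and binding was not measured. Below, 1 stretch of 30 bases is printed for each such gene and 4 for NFKB2, which has several start sites, read 5′ to 3′ on the gene's own strand with the matching bases in capitals.
BIRC3, chr11:102317275-102317304, plus strand: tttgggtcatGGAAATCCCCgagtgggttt
NFKB1, chr4:102501300-102501329, plus strand: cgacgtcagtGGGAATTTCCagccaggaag
NFKB2, chr10:102394461-102394490, plus strand: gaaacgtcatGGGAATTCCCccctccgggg
NFKB2, chr10:102394491-102394520, plus strand: ggccgagaaGGGGCTTTCCCggccctgagc
NFKB2, chr10:102395519-102395548, plus strand: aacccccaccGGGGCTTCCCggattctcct
NFKB2, chr10:102395674-102395703, plus strand: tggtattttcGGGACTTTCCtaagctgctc
NFKBIA, chr14:35404811-35404840, minus strand: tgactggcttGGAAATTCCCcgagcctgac
REL, chr2:60881518-60881547, plus strand: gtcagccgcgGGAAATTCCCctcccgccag
TNFAIP3, chr6:137867188-137867217, plus strand: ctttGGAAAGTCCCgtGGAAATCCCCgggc
The stretch of TNFAIP3 holds 2 matches side by side, and NFKB2 had 5 matching positions over 2 of its 3 windows. Of the 6 genes with a match, the RNA of NFKB2 and TNFAIP3 rose with tipifarnib. That of NFKB1, REL, NFKBIA and BIRC3 did not pass the test over the 3 lines. TRAF1, with no match, rose in that test.

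Levels are given as CPM, counts scaled to each library's size with TMM (edgeR's correction for library composition). Gene counts per library ran from 20481363 to 26962994. MYC itself was at 48.4 to 349 CPM in the 6 control libraries and at 494 to 1593 in the 6 MYC libraries, so the libraries matched their genotype labels. MYC also rose with tipifarnib in MDA-MB-231, by 1.20 ± 0.26 on the log2 scale (adjusted p = 0.011). Of the line markers, AKR1B10 (1406 to 2930 CPM) and AKR1C2 (1170 to 2817 CPM) were high in A549, ERBB2 (1169 to 5747 CPM) and PAX8 (172 to 265 CPM) in SKOV3, and VIM (887 to 1408 CPM) and ZEB1 (107 to 141 CPM) in MDA-MB-231. VIM was also at 716 to 1021 CPM in SKOV3, which overlaps MDA-MB-231. Some defining markers were near 0, namely NKX2-1 in A549 (at most 0.38 CPM), WT1 (at most 1.76 CPM) and MUC16 (at most 0.65 CPM) in SKOV3, and SPARC in MDA-MB-231 (at most 0.77 CPM). WT1 was higher in A549 (4.49 to 8.80 CPM) and SPARC in both other lines (2.43 to 123 CPM). The leukocyte markers PTPRC and CD3E did not exceed 0.51 CPM in any library, the endothelial marker VWF did not exceed 1.18 CPM, and CD14 reached 8.93 CPM, in A549. In bulk RNA, fewer cells making a transcript and less of it per cell cannot be told apart.

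**Figure D1:**
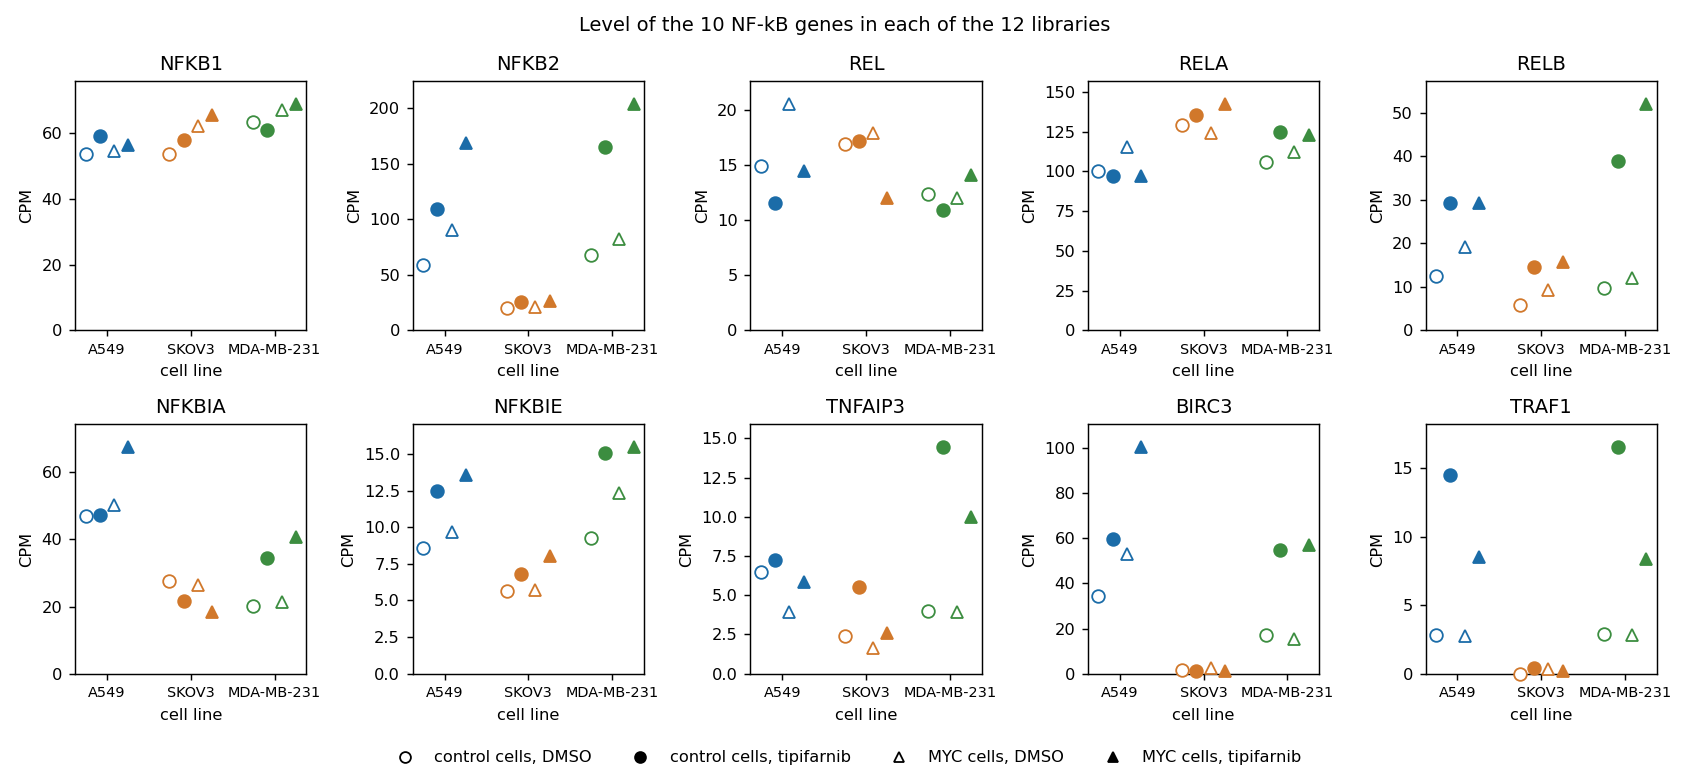
Level of each member (vertical axis, CPM from 0) in the 12 libraries, by cell line on the horizontal axis; circles are control cells, triangles MYC cells, open symbols DMSO and filled symbols tipifarnib. RELB, NFKB2 and NFKBIE have both filled symbols above both open symbols in every line, while BIRC3 and TRAF1 lie near 0 in SKOV3.

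Tipifarnib was compared with DMSO over both genotypes and all 3 lines, with the line as a block. RELB, NFKB2, TRAF1, TNFAIP3 and NFKBIE rose, that is, their Benjamini-Hochberg adjusted p over all genes tested was under 0.05 in edgeR's quasi-likelihood test. No member fell. The 5 members that rose of 10 stand beside 4.66% of all genes tested that rose and 6.63% that fell. The members were chosen with earlier results of these data known, so an excess over these shares is a description and not a test. The median log2 fold change was 0.66 over the 10 members and 0.00069 over all genes tested. Changes are written as log2 fold change ± a standard error, with positive values for higher levels in tipifarnib. That error was worked back from the quasi-likelihood test, as the size of the change over the square root of its F statistic. It is approximate, above all for changes near 0. Both pairs of a line enter this fit as if independent, so its p-values can be too small. The calls also rest on particular lines. Without the MDA-MB-231 libraries 0 members passed, and without those of A549 2 passed (RELB and TNFAIP3). Without those of SKOV3 4 passed, namely RELB, NFKB2, TRAF1 and BIRC3, of which BIRC3 is not among the 5 above. Over all genes, 1929 passed with the 3 lines, 87 without MDA-MB-231, 978 without A549 and 1174 without SKOV3.

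RELB (ENSG00000104856.9), the subunit that pairs with p52 in the non-canonical route, gave the smallest adjusted p of the members. In A549 it stood at 12.5 CPM in control cells with DMSO and 29.3 with tipifarnib, and at 19.1 and 29.4 in MYC cells. The same 4 libraries of SKOV3 read 5.86, 14.6, 9.27 and 15.7 CPM. Those of MDA-MB-231 read 9.75, 38.9, 12.1 and 52.1 CPM. Both tipifarnib libraries lay above both DMSO libraries within every line, and the ratio in a pair ran from 1.54 (A549 MYC cells) to 4.30 (MDA-MB-231 MYC cells). The change over both genotypes was 1.34 ± 0.20 (adjusted p = 0.0035, higher in 6 of 6 pairs).

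NFKB2 (ENSG00000077150.13) encodes p100, the precursor of p52 that also acts as an IkB. It read 58.5 CPM in A549 control cells with DMSO and 109 with tipifarnib, and 90.2 and 169 in A549 MYC cells. SKOV3 had 19.8, 25.4, 21.2 and 26.6 CPM of NFKB2 in that order, and MDA-MB-231 had 68.1, 165, 82.5 and 204 CPM. The separation was again complete within each line but of different size. The pair ratios were close to each other in the control and MYC cells of a line, at 1.86 and 1.87 for A549, 1.28 and 1.26 for SKOV3, and 2.42 and 2.47 for MDA-MB-231. Over both genotypes NFKB2 rose by 0.85 ± 0.16 (adjusted p = 0.0091, higher in 6 of 6 pairs).

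The other 3 subunits did not pass. NFKB1 (ENSG00000109320.7), the precursor of p50, kept between 53.5 and 68.8 CPM in all 12 libraries. Its change was 0.06 ± 0.07 (adjusted p = 0.65), with tipifarnib higher in 5 of 6 pairs by a ratio of at most 1.098. RELA (ENSG00000173039.14), the p65 subunit of the canonical dimer, lay between 96.9 and 143 CPM, with a change of 0.06 ± 0.08 (adjusted p = 0.71). In RELA the lines went different ways, since both A549 tipifarnib libraries (96.9 and 97.1 CPM) lay below the DMSO libraries (100.5 and 115 CPM) and those of SKOV3 and MDA-MB-231 lay above. REL (ENSG00000162924.9), the c-Rel subunit best known from lymphocytes, was at 10.98 to 20.6 CPM, with a change of -0.22 ± 0.16 (adjusted p = 0.41, lower in 4 of 6 pairs). Of the exon bases of REL 43.3% are shared with another annotated gene, AC010733.2, so that its counts are uncertain.

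Among the inhibitors, TNFAIP3 and NFKBIE rose and NFKBIA did not pass. TNFAIP3 (ENSG00000118503.10) encodes A20, which edits ubiquitin chains and damps signalling to the IKK complex. Its levels were low, 6.47, 7.28, 3.92 and 5.88 CPM in A549 (control DMSO, control tipifarnib, MYC DMSO, MYC tipifarnib), 2.39, 5.52, 1.65 and 2.60 CPM for SKOV3, and 3.99, 14.5, 3.96 and 9.97 CPM for MDA-MB-231. The treatments overlapped in A549 and were apart in the other lines. TNFAIP3 rose by 0.97 ± 0.24 (adjusted p = 0.030, higher in 6 of 6 pairs). The adjusted p was 0.28 without MDA-MB-231 and 0.11 without SKOV3.

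NFKBIE (ENSG00000146232.10), which encodes IkBε, showed the smallest of the 5 rises. With DMSO and tipifarnib it read 8.58 and 12.5 CPM in the control cells of A549 and 9.68 and 13.6 in its MYC cells. In SKOV3 NFKBIE read 5.64 and 6.81 CPM in control cells and 5.68 and 8.06 in MYC cells, and in MDA-MB-231 9.27 and 15.1, then 12.3 and 15.5. Tipifarnib was above DMSO within every line. The change of 0.47 ± 0.13 (adjusted p = 0.040, higher in 6 of 6 pairs) was near the threshold, and NFKBIE had adjusted p-values of 0.084 to 0.26 when any 1 line was left out and 0.11 with no filter on low counts.

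NFKBIA (ENSG00000100906.6) encodes IkBα, the inhibitor that NF-kB itself induces in a feedback loop. It was at 47.0 and 47.3 CPM in A549 control cells (DMSO, then tipifarnib) and at 50.3 and 67.5 in A549 MYC cells. SKOV3 read lower with tipifarnib, 27.6 and 21.6 CPM in control cells and 26.5 and 18.3 in MYC cells. MDA-MB-231 read higher, 20.0 and 34.3 CPM in control cells and 21.4 and 40.6 in MYC cells. SKOV3 and MDA-MB-231 thus separated in opposite directions, and the fit over the 3 lines gave NFKBIA a change of 0.22 ± 0.19 (adjusted p = 0.51), which was -0.08 without MDA-MB-231.

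The adaptors BIRC3 and TRAF1 bind each other and TRAF2 at TNF receptors. TRAF1 (ENSG00000056558.6), an NF-kB target with no ubiquitin ligase domain of its own, had the largest fold among the members that rose. In A549 it went from 2.86 to 14.5 CPM in control cells and from 2.74 to 8.50 in MYC cells. In MDA-MB-231 TRAF1 went from 2.88 to 16.6 CPM in control cells and from 2.84 to 8.34 in MYC cells. In SKOV3 it had 0 and 11 reads in control cells and 9 and 5 in MYC cells (0, 0.43, 0.34 and 0.22 CPM), where a count of 0 allows up to 3 reads or 0.13 CPM, and no direction can be read at that depth. TRAF1 rose by 1.81 ± 0.37 (adjusted p = 0.014, higher in all 4 pairs of A549 and MDA-MB-231), a fitted value that depends on the prior count because 1 library is at 0. The adjusted p was 0.23 without MDA-MB-231 and 0.11 without A549.

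BIRC3 (ENSG00000023445.9) encodes cIAP2, a ubiquitin ligase that acts in both routes. Tipifarnib read 59.6 CPM against 34.3 in DMSO in A549 control cells and 100.5 against 52.8 in A549 MYC cells. In MDA-MB-231 BIRC3 read 54.9 against 17.1 CPM in control cells and 57.2 against 15.3 in MYC cells. In SKOV3 it was at 1.36 against 1.65 CPM in control cells and at 1.16 against 2.54 in MYC cells, from 26 to 68 reads per library. The change over the 3 lines, 0.84 ± 0.34, did not pass (adjusted p = 0.14, higher in 4 of 6 pairs). BIRC3 passed without SKOV3 (1.32, adjusted p = 0.033), with limma-voom (1.15, adjusted p = 0.010) and with no filter on low counts (adjusted p = 0.037). Without MDA-MB-231 its change was 0.28 (adjusted p = 0.75), and without A549 it was 0.77 (adjusted p = 0.40).

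**Figure D2:**
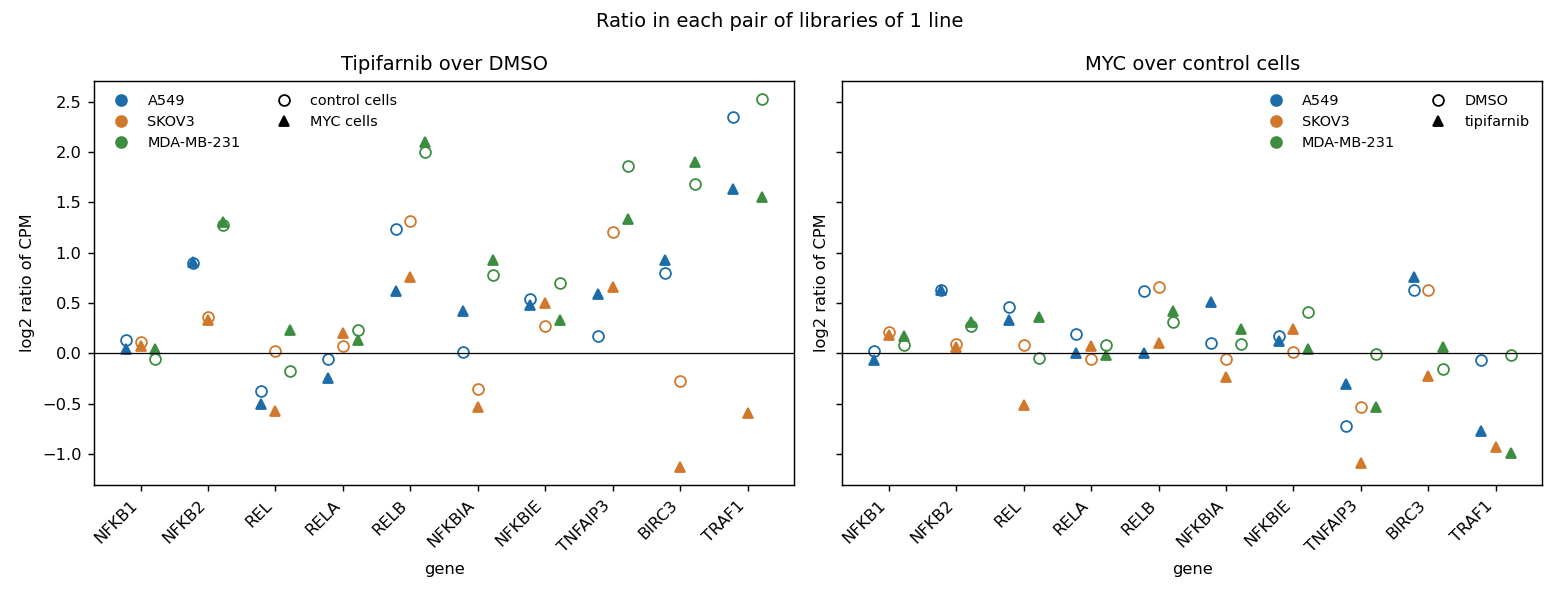
Log2 ratio of CPM in each pair of libraries of 1 line, for tipifarnib over DMSO (left) and MYC over control cells (right), with 1 gene per position on the horizontal axis and colour for the line; open circles and filled triangles are control and MYC cells on the left, DMSO and tipifarnib on the right. RELB, NFKB2, NFKBIE and TNFAIP3 are above 0 in all 6 pairs on the left and TNFAIP3 is below 0 in all 6 on the right; the 2 pairs that use the SKOV3 library with 0 reads of TRAF1 have no ratio.

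Tipifarnib was then compared within each line, over its control and its MYC pair, in a model with the line's own MYC and tipifarnib effects. In MDA-MB-231 6 members rose: RELB by 2.05 ± 0.20 (adjusted p = 0.00032), TRAF1 by 2.04 ± 0.45 (adjusted p = 0.011), BIRC3 by 1.80 ± 0.16 (adjusted p = 0.00021), TNFAIP3 by 1.59 ± 0.26 (adjusted p = 0.0029), NFKB2 by 1.29 ± 0.10 (adjusted p = 0.00019) and NFKBIA by 0.85 ± 0.14 (adjusted p = 0.0031). The background in MDA-MB-231 was 10.6% of genes higher and 12.1% lower. NFKBIE was at 0.51 ± 0.19 (adjusted p = 0.081), and NFKB1, REL and RELA were within 0.18 of 0. In A549, at the lower dose, 4 members rose beside a background of 3.56% higher and 4.47% lower: TRAF1 by 1.99 ± 0.45, RELB by 0.92 ± 0.19, NFKB2 by 0.90 ± 0.10 and BIRC3 by 0.86 ± 0.15. Their adjusted p-values were 0.029, 0.023, 0.0043 and 0.012 in that order. When the spread was estimated without MDA-MB-231, RELB (adjusted p = 0.065) and TRAF1 (adjusted p = 0.082) no longer passed in A549.

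In SKOV3 only RELB passed among the 10 members, by 1.03 ± 0.20 (adjusted p = 0.0094), beside 6.57% of genes higher and 7.48% lower. TNFAIP3 (0.95 ± 0.28, adjusted p = 0.052) and NFKB2 (0.35 ± 0.11, adjusted p = 0.063) were just outside the threshold. TNFAIP3 passed with DESeq2 size factors (adjusted p = 0.048) and NFKB2 with DESeq2 (adjusted p = 0.028). BIRC3 (-0.71 ± 0.24, adjusted p = 0.083) and NFKBIA (-0.44 ± 0.14, adjusted p = 0.067) had negative values that did not pass. RELB was thus past the threshold in each of the 3 lines.

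**Figure D3:**
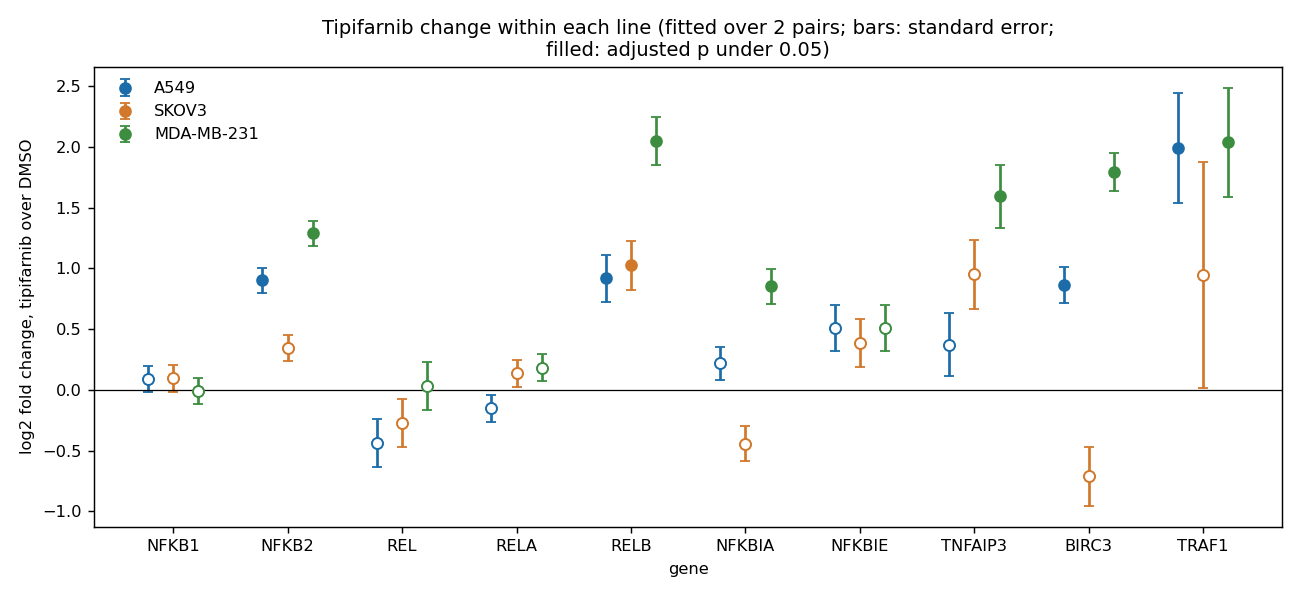
Fitted log2 fold change of tipifarnib over DMSO in each line (vertical axis) for the 10 members (horizontal axis), with bars for the standard error and filled symbols where the adjusted p was under 0.05. BIRC3 runs from -0.71 in SKOV3 to 1.80 in MDA-MB-231, while RELB is filled in all 3 lines.

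Whether the lines differed in their response was tested as a difference of the fitted changes. SKOV3 and MDA-MB-231 received the same dose. The response was larger in MDA-MB-231 for BIRC3 by 2.51 ± 0.29 (adjusted p = 0.0037), for NFKBIA by 1.30 ± 0.20 (adjusted p = 0.011) and for NFKB2 by 0.94 ± 0.15 (adjusted p = 0.011). These are 3 of 10 members, beside 7.34% of all genes whose response differed in either direction. RELB differed by 1.02 ± 0.28 (adjusted p = 0.056), and it passed with DESeq2 (adjusted p = 0.037) and without A549 (adjusted p = 0.031). For TRAF1 the difference of 1.09 ± 1.11 was too imprecise to read, given its few reads in SKOV3.

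Differences from A549 were added after the values were seen, and the dose differs there as well as the line, so the effects of dose and line cannot be told apart. BIRC3 responded less in SKOV3 than in A549, by -1.58 ± 0.28 (adjusted p = 0.024), 1 of 10 members beside 3.4% of all genes. Between MDA-MB-231 and A549 0 members passed, beside 1.73% of all genes. The nearest there were BIRC3 (0.93 ± 0.21, adjusted p = 0.068) and RELB (1.13 ± 0.27, adjusted p = 0.082).

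With the genotypes taken separately, each test rests on 3 pairs. In control cells RELB rose by 1.51 ± 0.28 (adjusted p = 0.027) and TRAF1 by 2.49 ± 0.52 (adjusted p = 0.042), beside 0.298% of genes that rose and 1.49% that fell. Both calls were lost when any 1 line was left out. In MYC cells 0 members passed, beside 0.404% that rose and 0.714% that fell. The members with the smallest p there were RELB (1.16 ± 0.27, adjusted p = 0.074) and NFKB2 (0.87 ± 0.22, adjusted p = 0.088). At an unadjusted p under 0.05 there were 4 members, beside 2769 of 17096 genes. DESeq2 called 2 members (RELB and NFKB2) beside 1026 genes, and limma-voom 1 (RELB) beside 305.

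The interaction, which asks whether MYC cells responded to tipifarnib differently from control cells, passed for 0 members and for 0.0% of all genes. At an unadjusted p under 0.05 it had 0 members, beside 125 of 17096 genes, and DESeq2 and limma-voom called 0 members. TRAF1 had the largest value, -1.37 ± 0.72 (adjusted p = 1.0). In both lines where TRAF1 was well counted the pair ratio was smaller in MYC cells, 3.10 against 5.08 in A549 and 2.94 against 5.75 in MDA-MB-231. The values for RELB (-0.35 ± 0.38), NFKB2 (0.03 ± 0.31) and BIRC3 (-0.17 ± 0.66) were smaller than their standard errors. These errors leave room for differences between the genotypes, and a missed threshold does not show equal responses.

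MYC cells were compared with control cells over both treatments, and 0 of the 10 members passed, beside 7.35% of all genes. TNFAIP3 had the smallest adjusted p, at -0.56 ± 0.24 (adjusted p = 0.18), and was lower in MYC cells in 6 of 6 pairs. NFKB2 (0.34 ± 0.15, adjusted p = 0.21), RELB (0.38 ± 0.19, adjusted p = 0.25) and NFKBIE (0.17 ± 0.13, adjusted p = 0.47) were higher in 6 of 6 pairs. Some of these pairs were nearly equal, with MYC over control ratios of 1.005 (RELB, A549 in tipifarnib), 1.007 (NFKBIE, SKOV3 in DMSO) and 0.994 (TNFAIP3, MDA-MB-231 in DMSO). At an unadjusted p under 0.05 there was 1 member, beside 4149 of 17096 genes. DESeq2 and limma-voom called 0 members, beside 2405 and 1740 genes. In DMSO alone and in tipifarnib alone 0 members passed, beside 0.0% of all genes in each. At an unadjusted p under 0.05 there were 0 members in either, beside 2667 genes in DMSO and 2096 in tipifarnib. DESeq2 and limma-voom called 0 members. MYC itself did not pass in these edgeR tests, at 2.97 ± 0.35 in DMSO (adjusted p = 0.056) and 2.24 ± 0.33 in tipifarnib (adjusted p = 0.12). A missed threshold there thus says little about the members.

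Within lines, 2 members rose with MYC in A549: NFKB2 by 0.63 ± 0.10 (adjusted p = 0.0035) and BIRC3 by 0.69 ± 0.15 (adjusted p = 0.012). Of all 17096 genes tested 1700 rose and 1334 fell there, 17.7% in either direction, so 2 of 10 members is near the background. NFKB2 went from 58.5 to 90.2 CPM in DMSO and from 109 to 169 in tipifarnib, ratios of 1.54 and 1.55. BIRC3 had ratios of 1.54 and 1.69. In SKOV3 0 members passed, beside 9.08% of all genes, and in MDA-MB-231 0 passed, beside 1.64%. At an unadjusted p under 0.05 each of these lines had 1 member, beside 4057 of 17096 genes in SKOV3 and 3129 in MDA-MB-231. DESeq2 and limma-voom called 0 members. The SKOV3 value nearest the threshold was TNFAIP3 (-0.84 ± 0.28, adjusted p = 0.10). Tests of the difference between lines in the MYC effect, added after the values were seen, passed for 0 members. NFKB2 had -0.55 ± 0.15 for SKOV3 minus A549 (adjusted p = 0.11) and BIRC3 had -0.73 ± 0.21 for MDA-MB-231 minus A549 (adjusted p = 0.15).

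Between the lines, 7 of the 10 members had their lowest mean level in SKOV3, and the share of all genes lowest there was not counted. In SKOV3 against A549, over all 4 groups, 8 of 10 members differed, beside 58.1% of all genes, so a call by itself says little here. BIRC3 was lower by -5.03 ± 0.47 and TRAF1 by -4.69 ± 0.51. NFKB2 (-2.09 ± 0.20), NFKBIA (-1.14 ± 0.24), TNFAIP3 (-1.08 ± 0.29), RELB (-1.02 ± 0.24) and NFKBIE (-0.75 ± 0.16) were lower as well, and RELA was higher (0.37 ± 0.10). The adjusted p-values of these 8 members ran from 1.3e-05 (BIRC3) to 0.0098 (RELA). BIRC3 averaged 61.8 ± 27.9 CPM in A549 (SD over the 4 libraries, which differ in treatment and genotype), 1.68 ± 0.61 in SKOV3 and 36.1 ± 23.1 in MDA-MB-231. NFKB2 averaged 107 ± 46.5, 23.2 ± 3.29 and 129.9 ± 65.3 CPM in the same order.

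In MDA-MB-231 against A549, 1 of 10 members was called beside 57.3% of all genes. That member was NFKBIA, lower in MDA-MB-231 by -0.88 ± 0.24 (adjusted p = 0.0090). BIRC3 had a value of similar size, -0.85 ± 0.38, that did not pass (adjusted p = 0.081). It passed with limma-voom (adjusted p = 0.012), with no filter on low counts (adjusted p = 0.024) and without SKOV3 (adjusted p = 0.018). In MDA-MB-231 against SKOV3, 6 of 10 members were higher and none lower. Of all 17096 genes tested 5009 were higher and 5521 lower, 61.6% in either direction, so the number of members called is near the background. The 6 members were TRAF1 (4.75 ± 0.52), BIRC3 (4.18 ± 0.46), NFKB2 (2.34 ± 0.20), TNFAIP3 (1.37 ± 0.29), RELB (1.12 ± 0.24) and NFKBIE (0.98 ± 0.16). NFKB1, REL and RELA did not pass in this comparison (adjusted p = 0.26, 0.13 and 0.13).

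Levels of different genes can be set side by side only per length, so CPM was divided by the kilobases of each gene's merged exons (GENCODE v29, whereas the reads were counted on hg19) and averaged over the 4 libraries of a line. In A549 the order was NFKB2 (23.8 CPM per kb), NFKBIA (22.4), RELA (18.7), NFKB1 (8.92), BIRC3 (8.22), RELB (7.43), NFKBIE (4.29), REL (1.17), TNFAIP3 (1.17) and TRAF1 (1.11). Neighbours in that order overlapped in their range over the 4 libraries, except RELA with NFKB1 and NFKBIE with REL. In MDA-MB-231 NFKB2 led as well (28.97 CPM per kb), before RELA (21.3) and NFKBIA (12.3), and REL was last (0.94). The place of REL is uncertain in every line, since 43.3% of its exon bases are shared with AC010733.2. Only RELA and NFKBIA were without overlap among the neighbours of MDA-MB-231. In SKOV3 RELA led (24.3 CPM per kb), then NFKBIA (9.90), NFKB1 (9.54), NFKB2 (5.18), RELB (3.74), NFKBIE (2.54), REL (1.22), TNFAIP3 (0.60), BIRC3 (0.22) and TRAF1 (0.038). In SKOV3 the ranges were apart at 4 steps of the order, after RELA, NFKB1, NFKBIE and BIRC3.

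The rest of the pathway was described with 5 lists of other NF-kB genes by role, 79 genes of which 77 were matched and 68 passed the filter. With tipifarnib over both genotypes 13 of the 68 rose and 0 fell, with a median log2 fold change of 0.25. These counts and those of each list stand beside 4.66% of all genes higher and 6.63% lower. The lists too were chosen with earlier results of these data known, so the counts are a description and not a test. Of the ligands and receptors 2 of 13 rose, and both are cytokines that activate the canonical route: IL1A by 3.73 ± 0.91 (adjusted p = 0.028) and IL1B by 2.38 ± 0.65 (adjusted p = 0.043). IL1A was below 1 CPM in all 6 DMSO libraries and in both A549 tipifarnib libraries, and reached 4.67 and 15.0 CPM with tipifarnib in SKOV3 (control, then MYC cells), against 1.88 and 5.56 for MDA-MB-231. IL1B was above 1 CPM only in MDA-MB-231, from 3.89 to 11.2 CPM in control cells and from 1.51 to 11.3 in MYC cells. Both fitted values rest in part on libraries at or near 0 reads. The receptors LTBR (0.26 ± 0.11, adjusted p = 0.14) and TNFRSF12A (0.34 ± 0.15) did not pass.

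Of the adaptors and ubiquitin machinery 3 of 20 rose: IRAK2, a kinase-like adaptor of IL-1 and Toll-like receptors, by 1.44 ± 0.24 (adjusted p = 0.0058), RBCK1, a part of the linear ubiquitin ligase, by 1.32 ± 0.22 (adjusted p = 0.0066), and TNIP1, a partner of A20, by 0.53 ± 0.14 (adjusted p = 0.039). In control cells IRAK2 read 8.84 CPM with DMSO and 37.9 with tipifarnib in A549 and 13.01 and 34.3 in MDA-MB-231, against 4.34 and 5.72 in SKOV3. The MYC cells of SKOV3 read 3.74 and 8.77 CPM of IRAK2, those of A549 5.77 and 22.1, and those of MDA-MB-231 13.6 and 34.96. RBCK1 was instead widest apart in SKOV3, from 100.2 to 375 CPM in control cells and from 124 to 501 in MYC cells. None of the 9 kinases passed, with IKBKB, the gene of IKKβ, at 0.30 ± 0.09 (adjusted p = 0.066). None of the 4 other IkB proteins passed.

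The target genes had the most calls, 8 of 22 higher, with a median of 1.01. The neutrophil chemokine CXCL8 rose by 3.06 ± 0.36 (adjusted p = 0.0015), CXCL2 by 2.26 ± 0.40 (adjusted p = 0.0079), the iron-carrier binding protein LCN2 by 2.17 ± 0.38 (adjusted p = 0.0070) and the cytokine LIF by 1.00 ± 0.19 (adjusted p = 0.0098). CXCL8 went from 9.27 to 58.6 CPM in MDA-MB-231 control cells and from 7.45 to 104 in MYC cells. In SKOV3, where 1 member passed, CXCL8 read 2.39 and 30.5 CPM in control cells and 1.01 and 18.5 in MYC cells. By line, 9 of the 68 listed genes rose and 2 fell in A549, 14 rose and 2 fell in SKOV3, and 24 rose and 0 fell in MDA-MB-231. The share of all genes that rose grew in the same order of lines, from 3.56% to 6.57% and 10.6%, and whether the listed genes differ between lines beyond it was not tested.

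**Figure D4:**
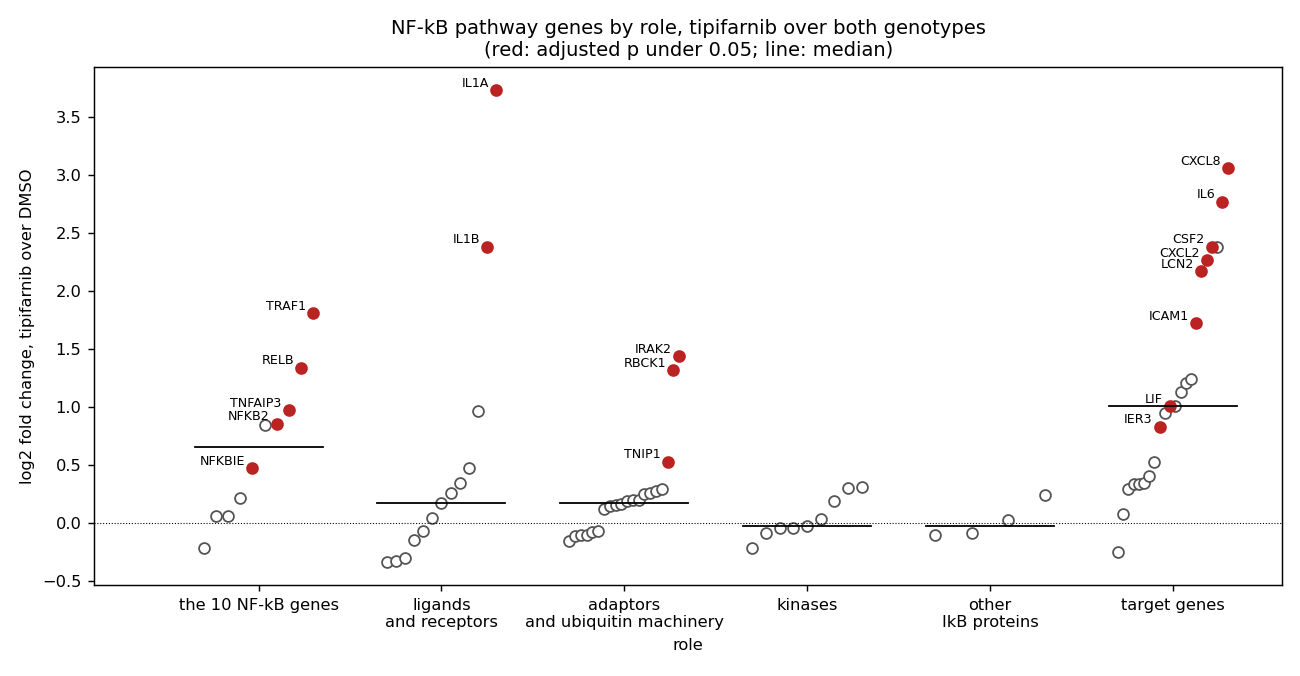
Log2 fold change of tipifarnib over DMSO over both genotypes (vertical axis) for the 10 members and the other NF-kB pathway genes by role (horizontal axis), red where the adjusted p was under 0.05, with a line at each median. The target genes have a median of 1.01 and the members of 0.66, while none of the kinases or other IkB proteins is red.

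With MYC over both treatments 0 of the 68 listed genes rose and 3 fell: the kinase and scaffold RIPK1 (-0.44 ± 0.09, adjusted p = 0.026), the nuclear IkB protein NFKBIZ (-0.91 ± 0.21, adjusted p = 0.033) and CFLAR, an inhibitor of caspase-8 activation (-0.54 ± 0.13, adjusted p = 0.036). Of all 17096 genes tested 770 rose and 486 fell, 7.35% in either direction, so 3 of 68 is near the background. In DMSO, NFKBIZ was lower in the MYC cells of each line, at 6.57 CPM against 13.9 in A549, 9.12 against 19.8 in SKOV3 and 8.62 against 13.1 in MDA-MB-231. The other listed genes near the threshold were IL1R1, the signalling receptor of IL-1 (-1.31 ± 0.39, adjusted p = 0.070), and LCN2 (1.24 ± 0.36, adjusted p = 0.065).

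CHUK, the gene of IKKα, is named because of its level in SKOV3, after its values were seen. CHUK was at 50.7 to 58.4 CPM in A549, at 2.58 to 3.85 in SKOV3 and at 72.6 to 91.1 in MDA-MB-231. SKOV3 was lower than A549 by -4.19 ± 0.16 (adjusted p = 5.7e-08). The listed kinases went both ways in that comparison, with 4 of 9 higher and 3 lower in SKOV3. Of all 17096 genes tested 4868 were higher and 5068 lower. Tipifarnib (0.03 ± 0.11) and MYC (0.06 ± 0.12) left CHUK within their standard errors of 0. Of the members, 7 of 10 (NFKB2, RELB, NFKBIA, NFKBIE, TNFAIP3, BIRC3 and TRAF1) also had their lowest mean in SKOV3. How many of all genes do so was not counted, and a link between these levels and that of CHUK was not tested.

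The members differed in how alike they were over the 12 libraries once each line's mean was removed (Pearson r of log2 CPM, given as a description, since the points share lines and treatments). NFKB2 was most like RELB (r = 0.92) and NFKBIE (r = 0.90), and NFKBIA was most like BIRC3 (r = 0.92). NFKB2 and NFKB1, both precursors, had r = 0.29, and REL and RELA had r = 0.20. Over 11684 genes, RELB was most like CAMTA2 (r = 0.98), TSC22D3 (r = 0.98) and TRAF3IP2 (r = 0.97), and NFKB2 most like TMEM129 (r = 0.96), DOCK6 and RALGDS (r = 0.95 each). BIRC3 was most like KLHDC2 (r = 0.95), ARSG (r = 0.95) and EFNA1 (r = 0.94), and NFKBIA most like USP30 (r = 0.97), HOXB5 (r = 0.96) and EFNA1 (r = 0.94). NFKBIE was most like MORN4, MGAT4B and FAS, TNFAIP3 most like RNF103, TBC1D17 and GOLGA5, and TRAF1 most like KCNAB2, GOLGA8A and TRPM7, all at r of 0.93 to 0.97. The nearest genes of the other subunits were BATF3 (r = 0.96) for NFKB1, NFE2L2 (r = 0.97) for RELA and SETD5 (r = 0.91) for REL.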

How the data were processed

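The authors deposited the raw counts of reads per gene for the 12 libraries as 1 table. The submitters' processing notes name TopHat2, HTSeq, DESeq2 and hg19. Versions, settings and use of strand are not given in the sources used here. The 5 HTSeq summary rows (17.5% to 19.9% of counts) were left out. Total RNA was made into libraries with a SMARTER mRNA-Seq kit, per the labels' protocols.

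Genes were filtered with filterByExpr and scaled with TMM. Tests were edgeR 4.0.16 quasi-likelihood tests on these counts, with Benjamini-Hochberg adjustment over 17096 genes and a threshold of 0.05. Comparisons over lines used line and group as terms (6 residual degrees of freedom). Those within or between lines' responses fitted MYC and tipifarnib effects for every line (3 residual degrees of freedom), with their interaction as error. There were 17 planned comparisons, and 5 were added after the values were seen. The line was the block because libraries of 1 line share their cells. After centring on groups, libraries of 1 line correlated across genes (not independent replicates) with r from 0.829 to 0.922 in 18 pairs, and those of different lines with r from -0.551 to -0.307 in 36 pairs. Where libraries of a line are alike, negative values between lines follow from the centring, since the deviations within a group cancel out.

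The 10 members and the 5 lists of other pathway genes were chosen with earlier results of these data known. Text names the members, MYC, up to 4 genes of a list with the smallest p in either comparison over all libraries, and the 3 genes most like each member. CHUK was named outside this rule, after its values were seen. Log2 CPM for that likeness used a prior count of 2 and genes with a mean of at least 1. Names and exon lengths came from an annotation on another build (GENCODE v29, 51996 identifiers paired). Calculations were tested on simulated data. A marker among those listed for other cell types is not reported here. Alternatives were DESeq2 1.42.0 and its size factors, no low count filter, limma-voom (limma 3.58.1), no replicate block and leaving out each line. R 4.3.3, Python 3.11.15, pandas 2.3.3 and matplotlib 3.10.9 were used.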

Additional observations from a re-analysis of the deposited data

Results flagged for a closer look

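In 4 cases a member's tipifarnib response differed between lines by a test of the difference itself (edgeR's quasi-likelihood test, adjusted over all genes). Between MDA-MB-231 and SKOV3, at the same dose, the log2 difference was 2.51 for BIRC3 (adjusted p = 0.0037), 1.30 for NFKBIA (adjusted p = 0.011) and 0.94 for NFKB2 (adjusted p = 0.011). These are 3 of 10 members, beside 7.34% of all genes in either direction. BIRC3 and NFKBIA were higher with tipifarnib in both pairs of MDA-MB-231 and lower in both pairs of SKOV3, and NFKB2 was higher in both pairs of both lines. Between SKOV3 and A549, where the doses differ, the difference for BIRC3 was -1.58 (adjusted p = 0.024), 1 of 10 members beside 3.4% of all genes. Between MDA-MB-231 and A549 0 members passed, beside 1.73% of all genes. Both comparisons with A549 were added after the values were seen. BIRC3 in SKOV3 rests on 26 to 68 reads per library.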

How the results depend on the processing

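The count of members called changed with the processing as follows. For tipifarnib over both genotypes (5 called) it was 0 with no replicate block, the fit that ignores the pairing by line, and 0 to 4 when a line was left out. For tipifarnib in control cells (2 called) it was 5 with DESeq2, 0 with no replicate block and 0 to 0 when a line was left out. For tipifarnib in MYC cells (0 called) it was 2 with DESeq2, 2 with no low count filter and 1 with limma-voom. For MDA-MB-231 against A549 (1 called) it was 2 with DESeq2, 2 with no low count filter, 2 with limma-voom and 2 without SKOV3. For tipifarnib in A549 (4 called) it was 2 to 4 when a line was left out. For tipifarnib in SKOV3 (1 called) it was 2 with DESeq2 size factors, 3 with DESeq2, 2 with no low count filter and 1 to 2 when a line was left out. The other counts of members were within 1.5 times under the alternatives run.

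Values that changed sign were all uncalled. Leaving out a line, the ranges were -0.084 to 0.54 (NFKBIA, tipifarnib over both genotypes), -0.17 to 0.40 (NFKBIA, tipifarnib in control cells), -0.053 to 0.19 (RELA, tipifarnib in MYC cells), -0.0029 to 0.00087 (NFKB1, tipifarnib in MDA-MB-231) and -0.014 to 0.0081 (RELA, MYC in SKOV3). For MYC over both treatments they were -0.014 to 0.28 (REL) and -0.47 to 0.084 (TRAF1), for MYC in DMSO -0.0035 to 0.085 (NFKBIA) and -0.050 to 0.98 (TRAF1), and for MYC in tipifarnib -0.13 to 0.34 (REL) and -0.018 to 0.036 (RELA). For the interaction they were -0.071 to 0.044 (NFKB1), -0.0034 to 0.047 (NFKB2), -0.39 to 0.12 (REL), -0.15 to 0.028 (RELA), -0.21 to 0.080 (NFKBIE), -0.47 to 0.00091 (TNFAIP3) and -0.33 to 0.055 (BIRC3). Other settings turned the interaction of NFKB1 (0.00046, no low count filter), NFKB2 (-0.028, limma-voom) and BIRC3 (0.098 with limma-voom, 0.040 with no replicate block). They also turned NFKB1 for tipifarnib in MDA-MB-231 (0.0015, no low count filter) and RELA for MYC in SKOV3 (-0.0071 with DESeq2 size factors, -0.0071 with DESeq2, -0.0030 with no low count filter). The cause was not tested.

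The counts over all genes also depend on the setting: DESeq2 called 3032 genes for tipifarnib over both genotypes (1929 in the main test), 1155 for control cells (305), 1026 for MYC cells (191), 2405 for MYC over both treatments (1256), 905 for MYC in DMSO (0), 443 for MYC in tipifarnib (0) and 873 for MYC in MDA-MB-231 (281). With no low count filter there were 551 genes for tipifarnib in control cells, 309 higher and 240 lower in MYC cells and 2321 in A549 (1373), 402 for MYC in DMSO, 99 in tipifarnib, 1309 in MDA-MB-231 and 2441 in SKOV3 (1553), and 2355 for the difference between MDA-MB-231 and SKOV3 (1255). With limma-voom there were 305 for tipifarnib in MYC cells, 209 for MYC in DMSO and 34 in tipifarnib. With no replicate block 0 genes passed in each comparison of groups. Leaving out a line gave 0 to 23 genes for tipifarnib in control cells, 0 to 73 in MYC cells, 10 to 148 for MYC over both treatments, 0 to 2 for MYC in DMSO and 0 to 1 in tipifarnib. Without MDA-MB-231 there were 544 for tipifarnib in A549 and 858 for MYC in SKOV3, and without A549 622 for MYC in MDA-MB-231. With 1 library per line and group, and few reads of TRAF1 and BIRC3 in SKOV3, small differences were not detectable.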
